A study of Rattus norvegicus with 80 samples.

Results

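Ptprc, Cd4, Cd68 and Cd74 are 4 genes of leukocytes, and their levels were followed here in whole mammary pads and tumors of rats and in cells isolated from the gland. They were taken by identifier from a table of 32883 rat genes: Ptprc is ENSRNOG00000000655, Cd4 is ENSRNOG00000016294, Cd68 is ENSRNOG00000037563 and Cd74 is ENSRNOG00000018735. The identifiers and symbols came as a list, and the rule itself used no measured value. The genes were, however, chosen with earlier results of these data known. All 4 had counts in every pad and tumor.

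Ptprc encodes CD45, a receptor tyrosine phosphatase on the surface of nearly all leukocytes that tunes antigen receptor signaling. Cd4 encodes the co-receptor of helper T cells for MHC class II, and in the rat it is also found on monocytes and macrophages. Cd68 encodes a lysosomal membrane glycoprotein that is abundant in macrophages. Cd74 encodes the invariant chain, which chaperones MHC class II molecules in B cells, dendritic cells and macrophages, and which inflammation can induce in other cells. The mammary pad is fat with embedded ducts, and it normally holds resident macrophages and lymphocytes.

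The series sequenced poly(A) RNA from 80 libraries in 19 groups. The rats were wildtype or belonged to 3 lines with mutated Nf1, a negative regulator of Ras, which the labels name IF, PS and IFPS without spelling out the alleles. Whole pads came from 6 wildtype, 3 IF, 6 PS and 6 IFPS samples, and tumors from 5 IF, 9 PS and 9 IFPS samples. There was no wildtype tumor. Mammary epithelial cells (MECs), mature adipocytes and fibroblasts had 3 libraries each in wildtype and in every line. MECs and fibroblasts were cultured to near confluency before their RNA was taken, per the extraction protocol, while pads and tumors were cut up and homogenized whole. The series' design text instead speaks of flow sorting for normal tissue, and it is not settled here whether the isolated cells were sorted, cultured or both. The labels of these samples give tissue and line only, with no age or treatment. They do not say that the libraries of a group came from separate animals, so p-values measure the spread between libraries, which may in part be technical.

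Total counts per library ranged from 17344717 to 37293141. Pad titles run from 1 to 12 and from 13 to 21, called set 1 and set 2 here. Wildtype, PS and IFPS pads have 3 libraries in each set, numbered as replicates 1 to 3 and 4 to 6, and IF pads are in set 1 alone. Levels are CPM, which set each count against its library's total after scaling by TMM, the normalization of edgeR. They are compared between libraries and not between genes, since gene lengths were not used. In bulk tissue fewer cells of a type and less RNA per cell cannot be told apart. IFPS tumors 6, 8 and 9 stood apart from the other 6: genes enriched in MECs had a mean log2 CPM of 0.24, -0.73 and -1.33 in them, against 2.12 to 2.30 in the rest. Several results that rest on these 3 tumors are given with and without them.

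RefSeq promoters of the build GRCr8 were found for Ptprc, Cd68 and Cd74, and they are shown because the levels of these genes moved together across libraries. Each runs 5′ to 3′ on the strand of its gene, from 250 bases before the start of transcription to 30 bases after it. Capitals mark GAGGAA, the core bound by the myeloid factor PU.1, and CCAAT, the box bound by NF-Y, on either strand. The windows are chr13:52259717-52259996 on the minus strand for Ptprc, chr10:54882412-54882691 on the minus strand for Cd68, and chr18:56526956-56527235 on the plus strand for Cd74.
Ptprc: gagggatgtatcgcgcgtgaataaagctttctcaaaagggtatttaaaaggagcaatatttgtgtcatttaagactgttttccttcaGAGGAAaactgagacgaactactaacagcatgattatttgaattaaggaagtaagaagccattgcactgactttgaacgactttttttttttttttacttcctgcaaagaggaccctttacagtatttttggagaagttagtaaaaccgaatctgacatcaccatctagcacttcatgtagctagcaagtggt
Cd68: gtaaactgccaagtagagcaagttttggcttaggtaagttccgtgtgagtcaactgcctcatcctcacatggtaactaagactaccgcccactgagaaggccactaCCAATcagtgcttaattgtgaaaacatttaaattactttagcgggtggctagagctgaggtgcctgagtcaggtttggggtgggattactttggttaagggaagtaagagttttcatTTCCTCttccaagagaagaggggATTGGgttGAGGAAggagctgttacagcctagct
Cd74: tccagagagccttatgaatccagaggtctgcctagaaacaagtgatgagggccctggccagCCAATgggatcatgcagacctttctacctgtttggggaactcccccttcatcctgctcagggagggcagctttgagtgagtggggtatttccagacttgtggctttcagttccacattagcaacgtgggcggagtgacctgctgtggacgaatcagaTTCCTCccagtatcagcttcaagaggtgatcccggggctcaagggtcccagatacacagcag
The Ptprc window held GAGGAA at -163 from the start and no CCAAT. The Cd68 window held both motifs on both strands. The Cd74 window held CCAAT at -189 and GAGGAA on the opposite strand, read as TTCCTC, at -32. Of 33469 rat promoters of the same length, 25.8% held GAGGAA and 36.2% held CCAAT on either strand. No matches overlapped in the windows shown. A match is a run of letters and says nothing of binding.

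Ptprc varied most among the 4 genes in pads. Wildtype pads had 355, 476 and 479 CPM in set 1 and 46.1, 63.3 and 171 CPM in set 2. PS pads had 47.5, 152 and 41.2 CPM in set 1 and 619, 694 and 316 CPM in set 2. In both lines the sets did not overlap, with set 2 low in wildtype and high in PS. How many of all genes do likewise was not counted, here or where groups below do not overlap. Of all 16384 genes, 5572 in wildtype and 3305 in PS differed between the sets at an unadjusted edgeR p under 0.05. IF pads, all of set 1, had 507, 46.4 and 341 CPM. IFPS pads had 765, 500 and 117 CPM in set 1 and 326, 768 and 36.6 CPM in set 2, so each set held both high and low libraries. Over the 21 pads the highest level was 20.98 times the lowest.

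Ptprc in tumors was mostly at or under the low end of pads. The 5 IF tumors had 18.4, 26.1, 18.6, 35.7 and 25.7 CPM, and none reached the lowest IF pad. PS tumors ran from 15.4 to 398 CPM with a median of 33.8, and the next level below that of PS tumor 3 was 118 CPM. IFPS tumors ran from 17.9 to 115 CPM with a median of 50.8. Of 23 tumors, 13 lay below every one of the 21 pads and 0 lay above them all.

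Cd4 was much steadier in pads. Wildtype pads ran from 90.8 to 150 CPM with a median of 104, PS pads from 59.4 to 137 CPM with a median of 107, and IFPS pads from 77.0 to 162 CPM with a median of 107. The 3 set 2 pads of wildtype, at 90.8 to 103 CPM, lay below the 3 of set 1, at 105 to 150 CPM. IF pads had 128, 92.6 and 127 CPM, and the highest pad of all was 2.73 times the lowest. Of 23 tumors, 20 lay below all 21 pads. IF tumors had 35.2, 30.4, 19.8, 39.2 and 21.3 CPM. PS tumors ran from 10.4 to 90.4 CPM with a median of 25.7, and IFPS tumors from 19.7 to 140 CPM with a median of 43.6. The 3 tumors within the range of pads were PS tumor 8 and IFPS tumors 6 and 9, the last a pair of the 3 tumors that stood apart.

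Cd68, the macrophage glycoprotein, had the narrowest range in pads, from 26.9 to 52.0 CPM, a ratio of 1.93. Group medians of pads lay between 36.02 and 38.17 CPM. IF tumors had 24.0, 20.98, 16.2, 29.5 and 17.7 CPM, PS tumors ran from 12.3 to 72.7 CPM with a median of 19.9, and IFPS tumors from 20.4 to 83.2 CPM with a median of 32.9. Of 23 tumors, 13 lay below all pads, and PS tumor 8 and IFPS tumor 9 lay above them all.

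Cd74, the invariant chain, spanned a wide range in pads and in tumors. Wildtype pads had 612, 776 and 776 CPM in set 1 and 258, 358 and 375 CPM in set 2, PS pads had 234, 420 and 261 CPM in set 1 and 964, 1088 and 481 CPM in set 2, and again neither pair of sets overlapped. IF pads had 874, 208 and 750 CPM, and IFPS pads ran from 159 to 927 CPM with a median of 614. IF tumors had 476, 271, 252, 510 and 283 CPM. PS tumors ran from 241 to 1763 CPM with a median of 420, and IFPS tumors from 117 to 1049 CPM with a median of 629. Only IFPS tumor 8 lay below all 21 pads, and PS tumors 7 and 8 lay above them. Across tumors the highest level was 25.9 times the lowest for Ptprc, 15.1 for Cd74, 13.5 for Cd4 and 6.77 for Cd68, and in pads the ratio for Cd74 was 6.86.

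**Figure D1:**
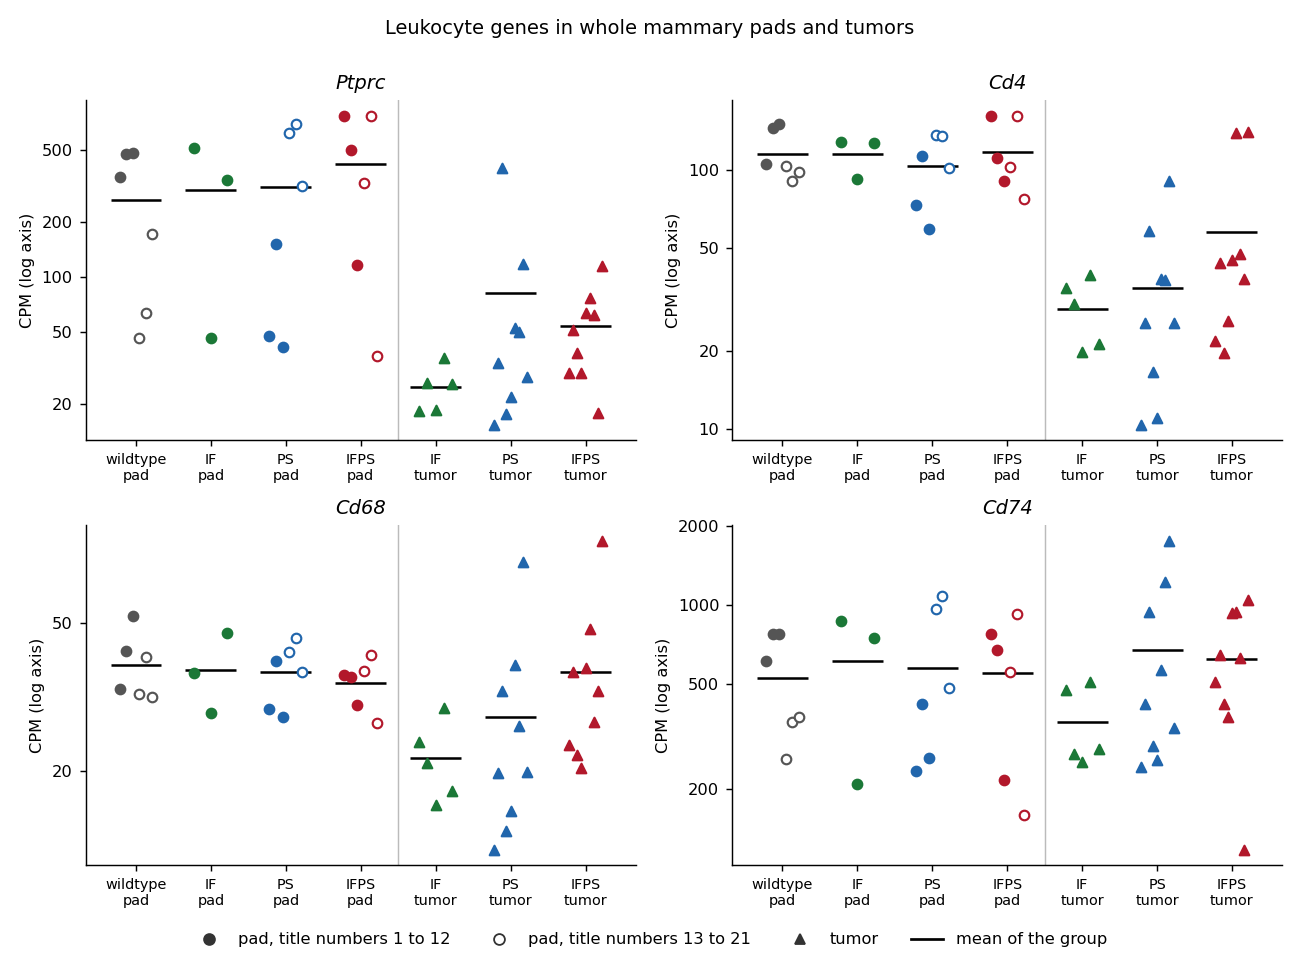
Levels of Ptprc, Cd4, Cd68 and Cd74 in every pad (circles, filled for titles 1 to 12 and open for 13 to 21) and tumor (triangles) by line, in CPM on a log axis, with bars at group means. Ptprc runs from 36.6 to 768 CPM over pads, with wildtype and PS sets in opposite order, and Cd4 lies lower in tumors, while Cd74 spans a like range in both tissues.

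Tumors were tested against the pads of their own line, which asks how the leukocyte transcripts of a lesion differ from those of the gland it arises in. Ptprc fell in all 3 lines and Cd4 in 2 of them, and neither Cd68 nor Cd74 passed the test in any line. In IF, Ptprc was 11.8-fold lower in tumors (log2 difference -3.56 ± 0.955 SE, edgeR adjusted p = 0.00874, 5 tumors and 3 pads) and Cd4 was 3.94-fold lower (-1.98 ± 0.556, adjusted p = 0.0117), and for both genes tumors and pads did not overlap. Without IF pad 1, the IF pad with the most Ptprc, the Ptprc difference was -2.93 (adjusted p = 0.04985). These were 2 of 4 genes called, where 23.3% of 17227 genes tested passed, 13.2% as lower. In IFPS, Ptprc was 7.62-fold lower (-2.93 ± 0.688, adjusted p = 0.00227, 9 tumors and 6 pads), 1 of 4 genes called against 27.9% of all genes, with 12.3% lower. It passed under each alternative, at -3.07 against set 1 pads and -2.76 against set 2 pads, and at -3.13 without the 3 tumors that stood apart. In that line 3 of 9 tumors lay below every pad for Ptprc and 7 of 9 for Cd4. In PS, Ptprc was 3.73-fold lower (-1.90 ± 0.673, adjusted p = 0.0254, 9 tumors and 6 pads) and Cd4 2.91-fold lower (-1.54 ± 0.404, adjusted p = 0.00347), 2 of 4 genes against 38.9% of all genes, with 20.8% lower. Of the 9 PS tumors, 5 lay below every PS pad for Ptprc and 8 for Cd4. The median log2 difference of the 4 genes was -1.38 for IF, beside 0.05 over all genes tested, and -0.96 for PS beside 0.01, and -0.44 for IFPS beside 0.09.

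The PS result for Ptprc depended on the pads used. Against set 1 pads alone it was 0.03 (adjusted p = 0.982), and against set 2 pads alone -2.68 (adjusted p = 0.0136). It lost the threshold without PS pad 4 (adjusted p = 0.0762) or PS pad 5 (adjusted p = 0.0995), the pads with the most Ptprc, and with only PS libraries in the fit (adjusted p = 0.065). Without PS tumor 3, the 398 CPM library, it was -2.85 (adjusted p = 0.000792). PS Cd4 kept its direction against set 1 pads alone but not the threshold (-1.23, adjusted p = 0.0972).

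Cd4 in IFPS tumors missed the threshold with all tumors in (-0.997 ± 0.403, adjusted p = 0.0613). It passed when the 3 tumors that stood apart were left out (-1.74, adjusted p = 0.000367), and when tumor 6 (adjusted p = 0.00961) or tumor 9 (adjusted p = 0.0163) alone was left out. Tumors 6 and 9 had 139 and 140 CPM of Cd4, against 19.7 to 47.2 CPM in the other 7. Their MEC scores, 0.24 and -1.33, were among the 3 lowest, and the part of that in the Cd4 level was not tested.

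Cd68 differed by -0.78 ± 0.400 in IF (adjusted p = 0.148), -0.38 ± 0.291 in PS (adjusted p = 0.307) and 0.11 ± 0.294 in IFPS (adjusted p = 0.804). For PS it passed without PS tumor 8 (-0.67, adjusted p = 0.0376), and for IF with only its own libraries in the fit (adjusted p = 0.043). Cd74 differed by -0.75 ± 0.638 in IF (adjusted p = 0.388), 0.25 ± 0.471 in PS (adjusted p = 0.696) and 0.22 ± 0.471 in IFPS (adjusted p = 0.763). For PS Cd74 the interval of 2 SE ran from -0.69 to 1.20, so a 2-fold difference toward tumors lay within it.

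**Figure D2:**
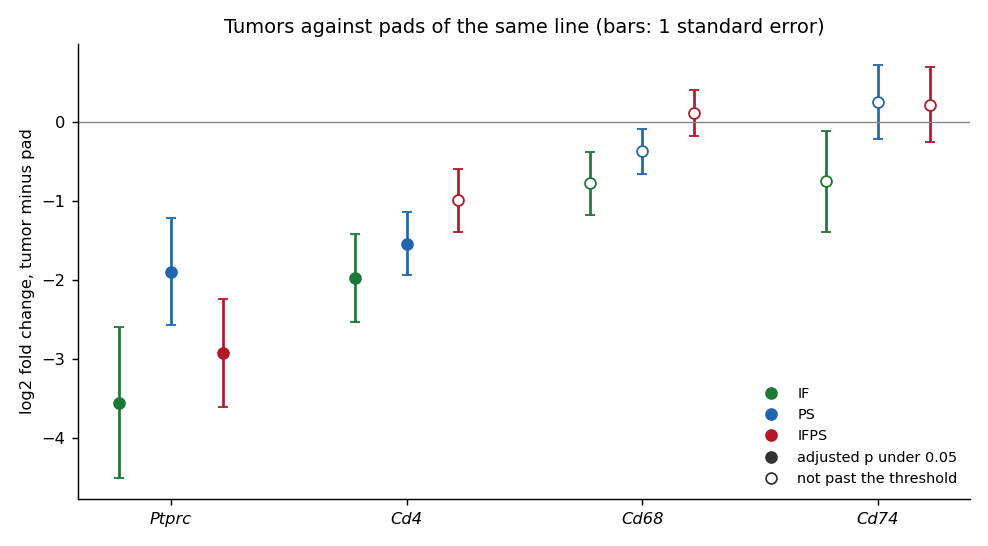
Log2 difference of tumors from pads of the same line for the 4 genes, with bars of 1 SE and filled symbols where the edgeR adjusted p was under 0.05. Ptprc lies at -3.56, -1.90 and -2.93 in IF, PS and IFPS and is filled in each, Cd4 is filled in IF and PS, and Cd68 and Cd74 are filled in no line.

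A call in one line and not in another does not show that the lines differ, so the differences themselves were tested. For the tumor to pad difference between lines, edgeR called 0 of 4 genes in each pair, with 0 at an unadjusted p under 0.05 and 0 with DESeq2, where 0.36% of all genes passed for PS against IF, 0.464% for IFPS against IF and 0% for IFPS against PS. For Ptprc the PS difference was 1.66 ± 1.154 above the IF one (adjusted p = 0.714). IF pads are all of set 1 while PS and IFPS pads are of both sets, so tests against IF set unlike pads together. Over the alternatives run, this Ptprc value ranged from 0.69 to 3.59 and passed the threshold under none. Cd68 in IFPS differed by 0.89 ± 0.498 from IF (adjusted p = 0.375), and by 0.50 to 1.03 over the alternatives run. Tumors compared directly gave the same count, 0 of 4 for each pair, by edgeR and by DESeq2. Of all genes 2.48% passed for PS against IF tumors, 4.25% for IFPS against IF and 0% for IFPS against PS. At an unadjusted p under 0.05 there was 1 call for PS against IF and 0 for the others. At that level 2693 of all 15966 genes passed for PS against IF, 3669 for IFPS against IF and 3537 for IFPS against PS. The 1 call was Ptprc, 1.73 ± 0.689 above IF tumors in PS tumors (edgeR adjusted p = 0.195).

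Pads of the mutant lines were tested against wildtype pads with the pad set as a covariate, and the 3 comparisons share the wildtype pads. No gene of the 4 was called in any line (0 at an unadjusted p under 0.05, and 0 with DESeq2), where edgeR called 0% of genes for IF, 0.0061% for PS and 0% for IFPS. The log2 difference of Ptprc from wildtype was 0.17 ± 1.01 for IF pads, 0.24 ± 0.992 for PS pads and 0.67 ± 0.8504 for IFPS pads (adjusted p = 0.813 for the last). IF pads are all of set 1, and with pads of that set alone the IF value was -0.54. The PS value averaged opposite differences, -2.42 within set 1 (adjusted p = 0.192) and 2.502 within set 2 (adjusted p = 0.205), and for IFPS the sets gave 0.09 and 1.99. For Cd4 it was 0.00033, -0.17 and 0.015 in the same order, with SE of 0.272, 0.217 and 0.215. For Cd68 it was -0.04, -0.07 and -0.17, with SE of 0.189, 0.148 and 0.148, and for Cd74 0.24, 0.09 and 0.05. The interval of 2 SE for Ptprc in IF pads ran from -1.85 to 2.19, so differences of several fold either way lay within it.

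Sets were then compared within each line, as titles alone define them and the labels do not say what set them apart. Ptprc was -2.18 ± 0.951 in set 2 against set 1 of wildtype pads (edgeR adjusted p = 0.124), 2.73 ± 0.972 in PS (adjusted p = 0.156) and -0.30 ± 0.911 in IFPS (adjusted p = 0.932). Cd74 followed with -1.08 in wildtype (adjusted p = 0.195), 1.44 ± 0.584 in PS (adjusted p = 0.191) and -0.03 in IFPS. None of the 4 was called in any line by edgeR or DESeq2, where edgeR called 3.86%, 1.01% and 0.159% of genes in wildtype, PS and IFPS. At an unadjusted p under 0.05 there were 1, 2 and 0 of the 4, beside 5572, 3305 and 1469 of all 16384 genes. The difference between the PS and wildtype set changes, a test added after the data were seen, was 4.91 ± 1.36 for Ptprc (adjusted p = 0.0372), 1 of 4 genes against 13% of all genes. The call was lost in 9 of 12 fits that left out a library, at adjusted p of 0.058 to 0.0992. Cd74 differed by 2.51 ± 0.822 (adjusted p = 0.052), Cd4 by 0.97 ± 0.383 (adjusted p = 0.0845) and Cd68 by 0.56 ± 0.280 (adjusted p = 0.159).

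The 4 genes varied together across pads and across tumors, whose libraries share their tissue. Over 21 pads Ptprc followed Cd74 with r = 0.947 (rho = 0.947, permutation adjusted p = 2e-05), Cd4 with r = 0.862 (rho = 0.881, adjusted p = 2e-05) and Cd68 with r = 0.722 (rho = 0.670, adjusted p = 0.00027), on log2 CPM. The permutation p of 1e-05 behind the first is the smallest that 100000 resamples can give. Leaving out the 2 pads farthest from the median of Ptprc gave 0.939, 0.827 and 0.625. Within the 9 pads below 200 CPM of Ptprc and the 12 above, a split chosen after the values were seen, r was 0.681 and 0.808 for Cd74, 0.616 and 0.802 for Cd4 and 0.511 and 0.167 for Cd68. As deviations from the mean of each line and set, r was 0.964, 0.823 and 0.719. Cd4 and Cd68 had r = 0.781, Cd4 and Cd74 r = 0.844, and Cd68 and Cd74 r = 0.820 (adjusted p of 6.86e-05, 2e-05 and 2e-05).

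Over 23 tumors the closest pair was Cd4 and Cd68, at r = 0.925 (rho = 0.931, adjusted p = 2e-05, r = 0.912 without the 2 farthest). Ptprc had r = 0.7998 with Cd74 (rho = 0.895, adjusted p = 2e-05), 0.737 with Cd4 (rho = 0.811, adjusted p = 7.5e-05) and 0.720 with Cd68 (rho = 0.809, adjusted p = 0.000207), and without PS tumor 3 these were 0.883, 0.831 and 0.871. Cd74 had r = 0.714 with Cd4 and 0.717 with Cd68 (adjusted p of 0.000204 and 0.000173). Without the 3 IFPS tumors that stood apart, r over 20 tumors was 0.853 and 0.881 for those pairs and 0.911 for Cd4 and Cd68. Over 9 PS tumors alone Cd4 and Cd68 had r = 0.937, and over 9 IFPS tumors 0.907. By r, some other pairs were looser within a line, though less so by rho. Over the 9 IFPS tumors Cd68 and Cd74 had r = 0.498 (rho = 0.833) and Cd4 and Cd74 r = 0.541 (rho = 0.8). Over the 6 wildtype pads Ptprc and Cd68 had r = 0.481 (rho = 0.714). The 9 IFPS tumors hold the 3 that stood apart, and r within IFPS without them was not computed. In all there were 12 pairs by tissue, and p-values are adjusted over them.

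**Figure D3:**
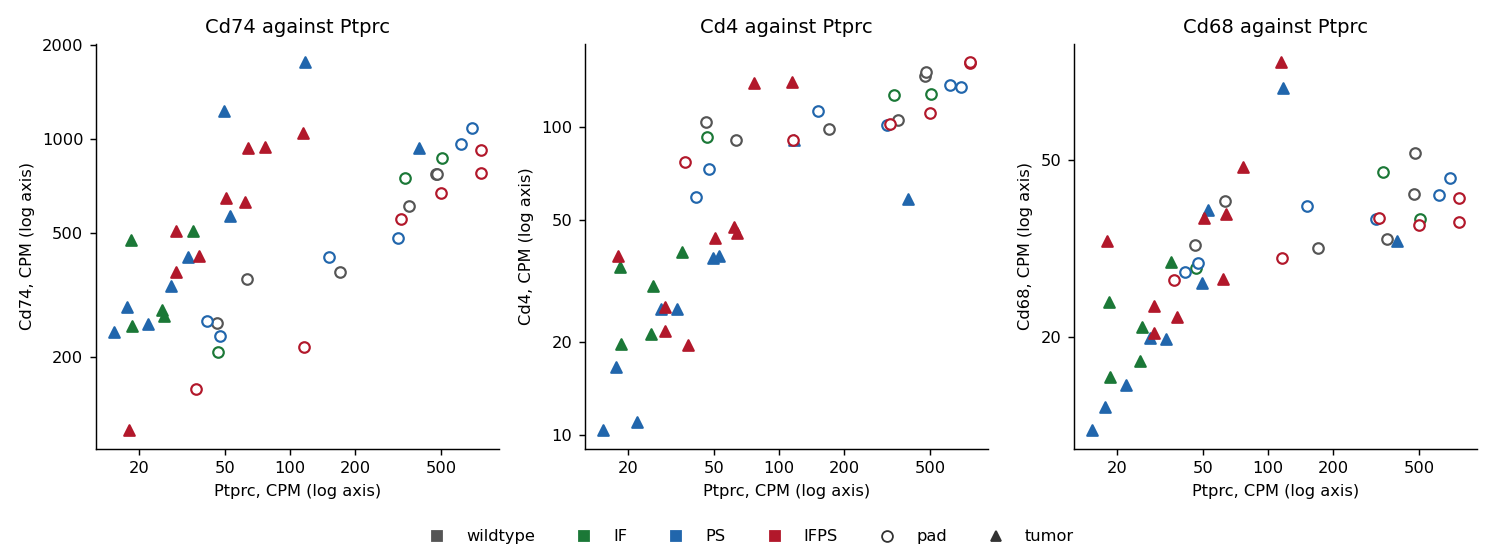
Levels of Cd74, Cd4 and Cd68 against Ptprc in CPM on log axes, 1 point per library, with pads as open circles and tumors as filled triangles. Points of each tissue run upward together, and tumors hold more Cd74 for the same Ptprc than pads, except PS tumor 3 with 398 CPM of Ptprc.

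The proportion of Cd74 to Ptprc set most tumors apart from pads. Its log2 ratio had a median of 0.79 in pads (0.03 to 2.66) and 3.63 in tumors (1.24 to 4.69), and 22 of 23 tumors lay above all 21 pads, PS tumor 3 being the exception. For Cd68 to Ptprc the medians were -3.09 (-4.40 to -0.44) and -0.50 (-3.59 to 0.87), with 8 of 23 tumors above all pads. For Cd4 to Ptprc they were -1.63 and -0.27, and 0 tumors lay above all pads. These ratios set a level in 1 library against another in the same library and carry no test. Ptprc was called lower in tumors of all 3 lines and Cd74 in none, so the ratios also carry the Ptprc difference. How many of all genes set tumors apart by their ratio to Ptprc was not counted.

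Some scores of genes enriched in an isolated cell type moved with the 4 genes in the same libraries. Genes at least 4-fold higher in one isolated cell type than in both others gave 1046 MEC, 1185 adipocyte and 373 fibroblast genes of 15928 tested, and the mean log2 CPM of each list, without the 4 genes, was its score. The adipocyte score averaged 3.03 to 3.17 in pads and 1.49 to 1.91 in tumors. It had r of 0.743 to 0.860 with the 4 genes over pads and 0.676 to 0.867 over tumors (adjusted p of 0.000120 to 0.00379 over 24 relations). Ptprc, Cd4, Cd68 and Cd74 were themselves higher in adipocyte libraries than in MEC or fibroblast libraries, so this list can hold other leukocyte genes. The fibroblast score had r of 0.764 with Cd4 and 0.739 with Cd68 over tumors (rho = 0.624 and 0.706), and 0.607 and 0.610 without the 3 IFPS tumors that stood apart. The MEC score had r of -0.537 with Cd4 and -0.506 with Cd68 (adjusted p = 0.0209 and 0.0284, rho = -0.236 and -0.180), and 0.06 and 0.21 without those 3 tumors, so both relations rested on them. The part of these scores in the tumor to pad differences was not tested.

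Isolated cells gave the levels of the 4 genes outside the whole tissue. In wildtype pads against MECs all 4 genes were higher, where 70.9% of 17126 genes passed and 38.8% were higher in pads. Cd68 was 2.51 ± 0.315 higher (adjusted p = 2.83e-09) and Cd74 8.99 ± 0.738. Cd4 had 0 counts in the 3 wildtype MEC libraries together, and was at least 3659-fold lower than in wildtype pads, against a floor of 3 counts over the group. Ptprc had 4 counts there, which put pads 6289-fold higher with a 95% Poisson interval of 2456 to 23083 that covers counting error only. Over all lines 11 of 12 MEC libraries had 0 counts of Cd4, and no MEC library had over 4 counts of Ptprc. Against fibroblasts all 4 were higher in pads too, by 7.17 for Ptprc, 5.85 for Cd4, 2.62 for Cd68 and 10.84 for Cd74, where 71.6% of genes passed, 39.6% as higher.

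Adipocyte libraries were different. Wildtype pads had more Ptprc (3.20 ± 0.860, adjusted p = 0.00101), Cd4 (3.67 ± 0.365) and Cd74 (3.08 ± 0.524), where 74.1% of genes passed and 40.6% were higher in pads. Cd68 did not pass (-0.52 ± 0.268, adjusted p = 0.077), at 62.7, 65.5 and 37.1 CPM in the 3 wildtype adipocyte libraries, while wildtype pads ran from 31.7 to 52.0 CPM. In order of mean Cd68 the 4 adipocyte groups came first, at 54.4 to 69.7 CPM, ahead of pads and tumors at 21.7 to 38.6 CPM, and their ranges overlapped. Set against raw library totals without TMM, IFPS tumors (41.3 CPM) and PS pads (40.81 CPM) came before wildtype adipocytes (40.76 CPM) and IFPS adipocytes (39.6 CPM). Fibroblasts and MECs, at 4.39 to 11.3 CPM, did not overlap IF tumors, the group next above them.

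For Ptprc and Cd4 pads came first in the order of means. For Ptprc the 4 pad groups averaged 265 to 419 CPM, tumors and adipocytes 24.5 to 81.7 CPM with overlapping neighbours, fibroblasts 1.67 to 7.24 CPM and MECs 0.0426 to 0.0759 CPM, and these last groups did not overlap the group above them. For Cd4 the pads averaged 103 to 117 CPM, tumors 29.2 to 57.8 CPM, and adipocytes, 4.34 to 10.4 CPM, did not overlap IF tumors, the group next above them. Cd74 was highest by mean in PS tumors, at 672 CPM, and IFPS tumors, at 625.5 CPM, and pads and tumors together averaged 358 to 672 CPM with neighbours that all overlapped, and 225 CPM in IF adipocytes. The other adipocyte groups, at 54.8 to 62.6 CPM, overlapped neither the IF adipocytes nor MECs and fibroblasts at 0.287 to 2.59 CPM.

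Lines were compared with wildtype in each cell type, sharing the wildtype libraries within it. IF adipocytes had 178, 222 and 276 CPM of Cd74 and wildtype ones 87.6, 63.9 and 36.2 CPM, with no overlap. Cd74 was 3.70-fold higher (1.89 ± 0.359, adjusted p = 0.00192, 3 libraries each, 1.60 to 2.19 with each library left out in turn), 1 of 4 genes called against 48.2% of 14304 genes, 26.5% as higher. The MEC score of IF adipocytes was 0.23 (-0.89 to 0.87) against -1.56 (-1.76 to -1.24) in wildtype, and their fibroblast score was 0.75 to 1.38 against -0.46 to -0.08. MEC libraries held 0.582 to 3.01 CPM of Cd74 and fibroblast libraries 0.141 to 2.43 CPM. The part of such cells in the difference was not tested. In PS adipocytes 0 of 4 genes were called by edgeR or DESeq2, where edgeR called 0.378% of all genes. At an unadjusted p under 0.05 there was 1 of the 4, beside 1680 of all 14304 genes. That gene was Cd4, at -1.03 ± 0.368 (edgeR adjusted p = 0.293). In IFPS adipocytes 0 of 4 were called, 0 at an unadjusted p under 0.05 and 0 with DESeq2, against 0% of all genes.

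Cd74 was the gene called in PS MECs, at 3.01, 2.21 and 2.56 CPM against 0.582, 1.52 and 1.02 CPM in wildtype, with no overlap (1.32 ± 0.298, adjusted p = 0.0429, 1 of 2 genes tested against 2.36% of all genes). The call was lost without any one PS library, without wildtype library 1 or 3, and with only these groups in the fit (adjusted p = 0.149). IFPS MECs had 0 of 2 genes called by edgeR or DESeq2, where edgeR called 0.374% of genes. At an unadjusted p under 0.05 there was 1 of the 2, beside 1588 of all 14688 genes. It was Cd74, at 0.96 ± 0.307 (edgeR adjusted p = 0.264). IF MECs had 0 of 2 called, 0 at an unadjusted p under 0.05 and 0 with DESeq2, against 0.817% of genes. Ptprc and Cd4 were too low in MECs to enter the test.

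In fibroblasts the calls rested on few counts. IF fibroblasts had 1.06, 2.07 and 2.43 CPM of Cd74 against 0.408, 0.141 and 0.312 CPM in wildtype, from 3 to 54 counts a library, and it was 6.33-fold higher (2.66 ± 0.505, adjusted p = 0.0187), 1 of 4 genes against 7.66%. PS fibroblasts had 3.86, 7.46 and 10.4 CPM of Ptprc in ascending order against 0.757, 1.45 and 3.32 CPM in wildtype, and it was 3.84-fold higher (1.94 ± 0.526, adjusted p = 0.0256), 1 of 4 genes against 21.7%. Neither pair of groups overlapped. With only these groups in the fit the adjusted p was 0.0654 and 0.0679. The Cd74 call was lost without IF fibroblast 2 or 3 or wildtype fibroblast 3, and the Ptprc call without PS fibroblast 2 or 3 or wildtype fibroblast 2 or 3. IFPS fibroblasts had 0 of 4 genes called, 0 at an unadjusted p under 0.05 and 0 with DESeq2, against 0.0648% of all genes.

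**Figure D4:**
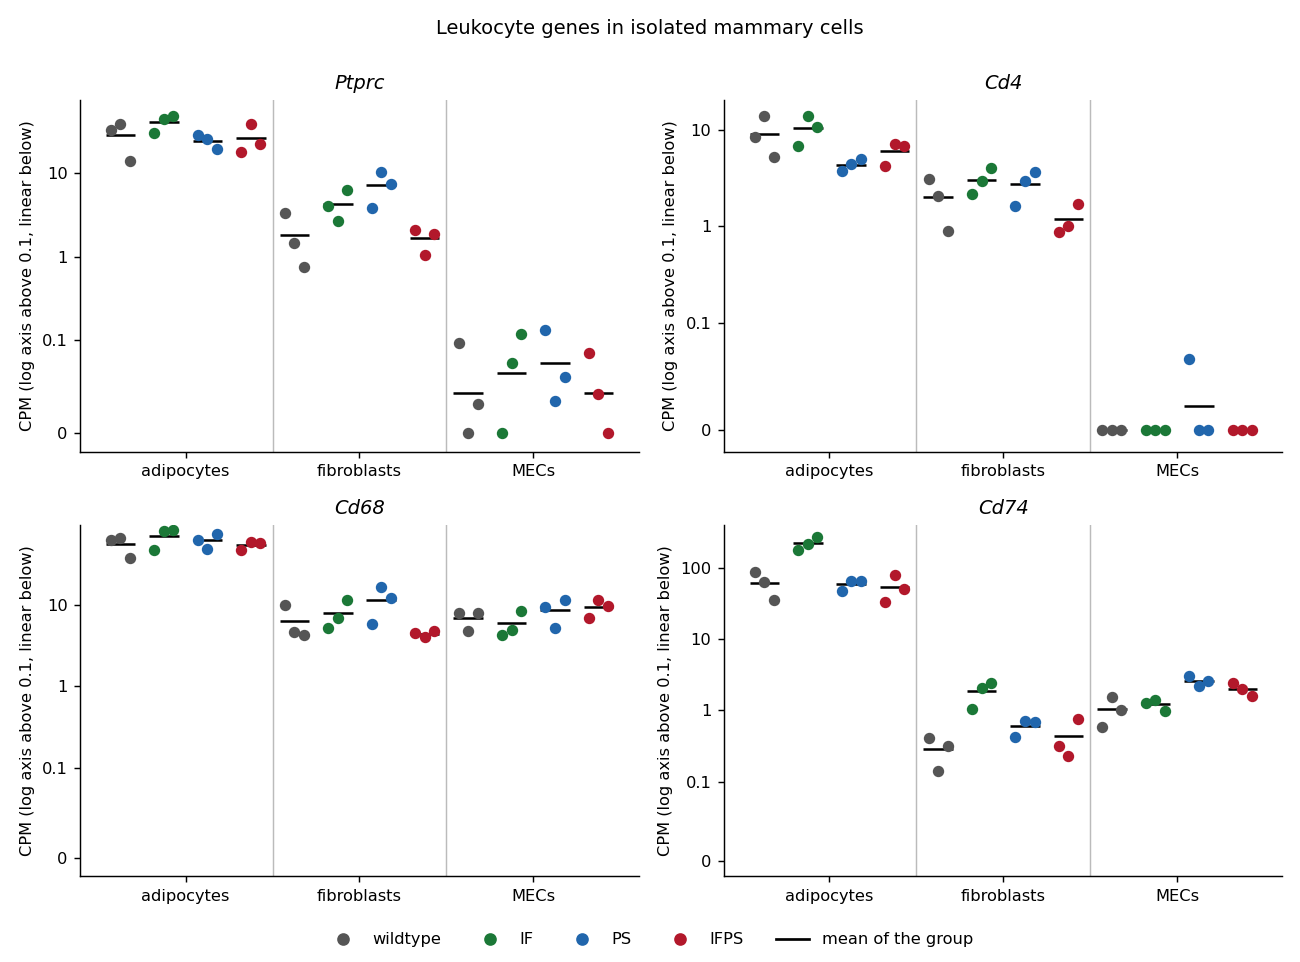
Levels of the 4 genes in adipocyte, fibroblast and MEC libraries by line, in CPM on an axis that is linear below 0.1 and logarithmic above, 1 point per library. Cd74 in IF adipocytes lies at 178 to 276 CPM, above the 36.2 to 87.6 CPM of wildtype, and Cd4 in MECs lies at 0 in 11 of 12 libraries.

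Over the 44 pads and tumors, the gene whose log2 CPM was most like the 4 genes on average among 17306 genes was ENSRNOG00000011054, with r of 0.916 to Ptprc, 0.865 to Cd4, 0.836 to Cd68 and 0.762 to Cd74. It ran from 43.9 to 245 CPM in pads and from 20.4 to 283 CPM in tumors. Next came ENSRNOG00000007679, with r of 0.866, 0.879, 0.890 and 0.712. The reference table used here paired neither with a symbol. Genes with r above 0.9 numbered 182 for Ptprc, 76 for Cd4, 12 for Cd68 and 4 for Cd74. Among the 4 themselves r over these libraries was 0.819 for Ptprc and Cd4, 0.823 for Cd4 and Cd68, and 0.439 for Cd4 and Cd74.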

How the data were processed

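Counts per gene are the authors' deposited values, raw and whole, in 1 table of 32883 identifiers and 80 libraries. Per the submitters' processing notes, Trim Galore, STAR 2.5.2b and Rnor_6.0 were used. The counting tool, annotation release and strand setting are not given in the sources used here, so overlapping, antisense or near-identical genes could not be separated. Libraries were made from poly(A) RNA and read as 50 bp pairs, per the labels' protocols. Samples were grouped by the tissue and line in their labels.

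Tests used edgeR 4.0.16 in R 4.3.3 (quasi-likelihood, TMM, filterByExpr), with p-values adjusted by Benjamini-Hochberg over all genes tested and a threshold of 0.05. Differences are log2 values with SE. In pads the set of title numbers was a covariate, and no other comparison of lines had one. Alternatives were DESeq2 1.42.0, RLE size factors, no filter, only the groups compared, either pad set alone, and each library left out. The IFPS tumors with a MEC score under 1 were left out as an alternative chosen after the data were seen. The log2 CPM of correlations used a prior count of 2 and 100000 permutations. Counts were also simulated with each gene's share pooled over libraries and few genes changed. There edgeR recovered 43% of genes changed 2-fold in PS tumors against pads and 65% of those changed 4-fold. Over the comparisons simulated, recovery at 2-fold ran from 35% for IFPS against IF tumors to 81% for PS against wildtype fibroblasts. In the real PS tumors against pads 38.9% of genes passed, so the simulated rates need not carry over.

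The named genes were the 4 members and the 2 genes most like them by mean r. Members and lists were chosen with earlier results of these data known. No identifier could be paired with a symbol through the reference table of GRCr8, so markers of other leukocytes, epithelium, fat and stroma and the MHC class II genes were not analysed here. No 2 libraries of a group matched within sampling noise: over 166 pairs the lowest chi-square per degree of freedom was 8.7.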

Additional observations from a re-analysis of the deposited data

Results flagged for a closer look

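Ptprc was 398 CPM in PS tumor 3, and the next of the 9 PS tumors had 118 CPM. That gap was 0.733 of the group's range, above the critical value of 0.493 for 9 samples. Cd68 was 72.7 CPM in PS tumor 8, where the next had 38.6 CPM (0.565 of the range), and 83.2 CPM in IFPS tumor 9, where the next had 48.3 CPM (0.556). Chance marks about 1 in 20 groups where values are normally spread, and 24 pairs of a gene and a group were examined, which share libraries. The rule was applied to CPM, which are skewed toward high values, so that rate may not hold. On log2 CPM, Ptprc was 8.64 in PS tumor 3, 6.88 in the next PS tumor and 3.95 in the lowest. That gap is a smaller share of the range than the critical value, and so are both Cd68 gaps once logged. These flags therefore rest on the CPM scale.

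The change from set 1 to set 2 pads differed between PS and wildtype by 4.91 ± 1.36 on the log2 scale for Ptprc (edgeR adjusted p = 0.0372). For Cd74 the difference was 2.51 ± 0.822 (adjusted p = 0.052), and it is listed because all 3 wildtype set 2 pads lay below set 1 and all 3 PS set 2 pads lay above it.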

How the results depend on the processing

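Of 106 tests of a gene, 21 passed the threshold, and 15 of these passed under every alternative run; of the 85 that did not pass, 75 passed under none. The log2 difference turned sign as follows. Against set 1 pads alone, IF pads minus wildtype pads gave Ptprc -0.54, Cd4 -0.20 and Cd74 -0.24, PS pads gave Ptprc -2.42 and Cd74 -1.22, IFPS pads gave Cd4 -0.14 and Cd74 -0.37, and PS tumors minus pads gave Ptprc 0.034. With set 2 pads alone, PS pads minus wildtype gave Cd4 0.31 and Cd68 0.21, PS tumors minus pads gave Cd74 -0.28, and the IFPS minus PS difference in that change gave Cd74 0.53. Cd4 in IF pads was -0.010 without the set covariate and -0.0084 with only the groups compared. Without the 3 IFPS tumors that stood apart, Cd68 in IFPS tumors minus pads was -0.25, the IFPS minus PS difference in that change was -0.21 for Cd4, and IFPS minus PS tumors gave Cd4 -0.047 and Cd68 -0.0044. Cd68 in IFPS adipocytes was -0.0029 with DESeq2, -0.0035 with RLE, -0.00033 with no filter and -0.0094 with only the groups compared.

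The number of the 4 genes called moved to 2 for wildtype pad sets, 1 for PS tumors minus pads, and 0 for PS MECs, IF fibroblasts and PS fibroblasts with only the groups compared. It was 0 for PS tumors minus set 1 pads and 2 for IFPS tumors minus pads without the 3 tumors. For the PS minus wildtype set change it was 2 with DESeq2 and 2 with only the groups compared. Counts over all genes moved as well. With only the groups compared they were 8222 for PS tumors minus pads, 36 for PS MECs and 89 for IF fibroblasts. They were 3079 for PS tumors minus set 1 pads and 8474 for IFPS tumors minus pads without the 3 tumors. Over the alternatives they ran from 3 to 4328 for the set change, 32 to 3560 for wildtype pad sets and 1152 to 3439 for PS fibroblasts. With sets defined by 8-fold the fibroblast score passed with all 4 genes in pads, at r = 0.534 for Ptprc, 0.543 for Cd4, 0.648 for Cd68 and 0.560 for Cd74, and with Cd74 in tumors at 0.529.

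With each library left out in turn, the number called ran from 1 to 3 in PS tumors minus pads, 1 to 2 in IFPS tumors minus pads, 0 to 1 in PS MECs, and 0 to 2 in IF fibroblasts, PS fibroblasts and the PS minus wildtype set change. Over all genes it ran from 5713 to 6889, 3874 to 6429 and 72 to 815 in PS tumors, IFPS tumors and PS MECs. In IF fibroblasts, PS fibroblasts and the set change it ran from 97 to 1525, 1152 to 3427 and 3 to 4328. Log2 differences that turned sign in these fits ran as follows. In IF pads Ptprc ran from -0.45 to 0.67, Cd4 from -0.071 to 0.13, Cd68 from -0.23 to 0.11 and Cd74 from -0.10 to 0.64. In PS pads Ptprc ran from -0.22 to 0.74, Cd68 from -0.14 to 0.030 and Cd74 from -0.15 to 0.32, and in IFPS pads Cd4 from -0.11 to 0.11 and Cd74 from -0.14 to 0.23. Between IFPS pad sets Ptprc ran from -1.345 to 0.29, Cd4 from -0.43 to 0.18, Cd68 from -0.089 to 0.18 and Cd74 from -0.64 to 0.40. In tumors minus pads Cd74 in PS ran from -0.061 to 0.57 and Cd68 in IFPS from -0.082 to 0.20. For the difference in that change, Ptprc in IFPS minus IF ran from -0.012 to 1.12 and Cd74 in IFPS minus PS from -0.36 to 0.27. Between tumors Cd4 in PS minus IF ran from -0.042 to 0.40, and in IFPS minus PS Ptprc ran from -0.82 to 0.36 and Cd74 from -0.21 to 0.21. In IF MECs Cd68 ran from -0.53 to 0.0024 and Cd74 from -0.041 to 0.63. In adipocytes Cd4 in IF ran from -0.066 to 0.66, in PS Ptprc ran from -0.51 to 0.12, Cd68 from -0.023 to 0.345 and Cd74 from -0.30 to 0.29, and in IFPS Ptprc ran from -0.4949 to 0.21, Cd68 from -0.21 to 0.16 and Cd74 from -0.55 to 0.15. In fibroblasts Cd68 in IF ran from -0.060 to 0.81, and in IFPS Ptprc ran from -0.54 to 0.58 and Cd74 from -0.095 to 0.89. The cause was not tested for any of these.

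Title numbers shared by set 1 pads and isolated cells were not taken to pair the samples in the main tests. Between deviations from group means, r was over 0.1 in 5, 3 and 2 of 12 pairs with MECs, adipocytes and fibroblasts, which does not exclude pairing. The r of their deviations over 16951 genes ran from -0.017 to 0.137 with MECs, -0.026 to 0.127 with adipocytes and -0.00062 to 0.135 with fibroblasts. Samples correlated best with their own number in 11, 9 and 9 of 12 cases, each out of 3 libraries of the line. A random pick would hit its own number less often, but pairing itself was not tested. In wildtype the own number was not the best for MEC 1, adipocytes 1 and 3 and fibroblast 1. With the replicate block on set 1 pads, 4, 3 and 4 genes were called against MECs, adipocytes and fibroblasts, as without it. Counts over all genes moved by more than 1.5 times in most comparisons of lines, for instance from 2130 to between 3 and 4328 for the PS minus wildtype set change, from 4814 to between 1199 and 8474 for IFPS tumors minus pads, from 6709 to between 3079 and 8222 for PS tumors minus pads, from 4007 to between 2113 and 5012 for IF tumors minus pads, from 347 to between 36 and 855 for PS MECs, from 6893 to between 4324 and 8794 for IF adipocytes, from 1063 to between 89 and 1775 for IF fibroblasts, and from 3016 to between 1152 and 3439 for PS fibroblasts. Without TMM the order of group means moved in 13 of 19 groups for Cd68 and 3 for Ptprc. Counts of 3 to 54 limit Cd74 in fibroblasts, and Ptprc and Cd4 were not testable in MECs at this depth.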
